A study of Drosophila melanogaster with 3 samples.

Results

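The small heat shock genes of cytological region 67B are a cluster of 7 genes, Hsp67Bc, Hsp67Bb, Hsp22, Hsp26, Hsp67Ba, Hsp23 and Hsp27, among 13945 protein-coding genes on the major chromosome arms of Drosophila melanogaster. They are examined here for binding of acj6, a POU-homeodomain transcription factor known mainly from neurons. The genes were chosen by name, with their ranks in these lists already known, and a region counted as theirs when its summit (the base of highest signal) lay in the gene body or within 2 kb of it. The values that selected the summits, position and rank, are therefore given as a description with no test. The 7 genes took 3 of the 8248 regions in the list that passed the irreproducible discovery rate (IDR) procedure, which is meant to keep regions that repeat between replicates.

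The measurement was chromatin immunoprecipitation and sequencing (ChIP-seq) with an antibody against GFP. The flies were a transgenic line, acj6-GFP, with GFP fused to the C-terminus of acj6, collected whole as white prepupae with both sexes pooled. The single group of 3 biological replicates has no second condition, and its labels leave unsaid whether the replicates were raised apart, so their spread may be technical. Neither the promoter that drives the fusion nor the state of the untagged gene is named there. Each replicate and the pooled reads had a list of 30000 regions, and all replicates shared 1 control file. The lists hold no read counts, so depth is unknown and no counting interval can be given for a signal. Signals are not scaled between lists and were ranked only within a list, with rank 1 the strongest. The lists also hold no RNA level, so nothing here says whether a gene was transcribed.

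Small heat shock proteins share an alpha-crystallin domain and assemble into large oligomers that hold unfolding proteins so that ATP-dependent chaperones can refold them. In Drosophila their genes at 67B respond to heat through heat shock factor, which binds arrays of alternating GAA and TTC units, and several promoters also carry GA repeats bound by GAGA factor. The main members of the cluster are also switched on without heat by the moulting hormone ecdysone, whose pulse at the end of larval life makes the white prepupa.

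The promoters of Hsp27, Hsp26 and Hsp23 are shown because they hold the strongest region, the region whose IDR summit falls on a heat shock motif, and a promoter with heat shock motifs and a region near the bottom of 1 list only. Each run is the 250 bp before the start of transcription, 5′ to 3′ on the strand of the gene, read from the RefSeq Release 6 genome (dm6). Capitals mark, on either strand, GAANNTTC (a pair of heat shock units), GAGAG (the GAGA factor core), TATAAA (the TATA box) and ATGCAAAT (the octamer bound by many POU proteins). The Hsp27 run is chr3L:9383813-9384062 on the plus strand, the Hsp26 run chr3L:9377428-9377677 on the minus strand, before the upstream of its starts, and the Hsp23 run chr3L:9381632-9381881 on the plus strand.
Hsp27: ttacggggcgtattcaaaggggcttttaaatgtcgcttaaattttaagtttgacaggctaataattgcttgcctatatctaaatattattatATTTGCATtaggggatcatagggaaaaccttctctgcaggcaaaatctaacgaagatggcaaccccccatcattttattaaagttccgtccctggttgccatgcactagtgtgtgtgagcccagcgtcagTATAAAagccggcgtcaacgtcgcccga
Hsp26: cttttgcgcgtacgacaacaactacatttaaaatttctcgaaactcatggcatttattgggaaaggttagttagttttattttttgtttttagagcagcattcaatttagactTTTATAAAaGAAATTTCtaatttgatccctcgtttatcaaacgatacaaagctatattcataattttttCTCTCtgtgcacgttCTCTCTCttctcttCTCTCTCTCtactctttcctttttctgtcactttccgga
Hsp23: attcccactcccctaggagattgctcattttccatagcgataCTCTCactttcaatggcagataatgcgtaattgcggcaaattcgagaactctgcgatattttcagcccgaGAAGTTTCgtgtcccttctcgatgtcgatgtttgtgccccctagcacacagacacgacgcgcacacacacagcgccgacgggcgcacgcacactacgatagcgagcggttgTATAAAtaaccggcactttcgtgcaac

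The 25 bases around the IDR summits at Hsp22, Hsp26 and Hsp27 are shown next, on the strand of each gene, with the summit base in capitals. They are chr3L:9373532-9373556 (plus), chr3L:9377543-9377567 (minus) and chr3L:9383906-9383930 (plus).
Hsp22 summit: taattatttgttAatattaagctgt
Hsp26 summit: acttttataaaaGaaatttctaatt
Hsp27 summit: tttgcattagggGatcatagggaaa

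The cluster spans 14.2 kb of 3L, from 9371511 to 9385694, with 4 genes on the plus strand and 3 on the minus strand. Hsp67Bc lies first (9371511 to 9372497, minus), and its start is 225 bp from the upstream start of Hsp67Bb on the other strand. Hsp67Bb (FBgn0001228, named CG4456 in the annotation used) runs from 9372722 to 9374964 and overlaps Hsp22, which runs from 9372931 to the same end. Hsp26 (9376418 to 9377427, minus) and Hsp67Ba (9377802 to 9379534, minus) follow. Hsp23 (9381882 to 9382765, plus) and Hsp27 (9384063 to 9385694, plus) close the row. CG4461, an alpha-crystallin gene that is not a member, lies between Hsp22 and Hsp26.

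Within this interval the 3 IDR summits fell at 9373544, 9377555 and 9383918, spaced by 4011 and 6363 bp. This makes 0.212 summits per kb, against 0.0666 per kb over the whole of arm 3L (1873 summits in 28.1 Mb), a comparison of densities with no test since the cluster was chosen for its regions. The next IDR summit to the left lay 34303 bp from the summit at 9373544, nearest PGRP-LC, and the next to the right lay 15351 bp from the summit at 9383918, nearest CG4080. All 7 members had an IDR summit in the gene body or within 2 kb, as did 38.5% of all protein-coding genes. The count of members rests on sharing: the summit at 9373544 served Hsp67Bc, Hsp67Bb and Hsp22, that at 9377555 served Hsp26 and Hsp67Ba, and that at 9383918 served Hsp23 and Hsp27. Within 1 kb of a transcription start the members with a summit were 4 of 7, namely Hsp22, Hsp26, Hsp27 and Hsp67Bb, beside 24.4% of all genes. With each summit given to its nearest gene only, 3 members remained: Hsp22, Hsp26 and Hsp27.

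Members just inside the 2 kb limit were Hsp67Bc, 1047 bp from its nearest summit, and Hsp23, 1153 bp from its nearest, the summit before Hsp27. CG4461, at 1262 bp, was also inside. Just outside were the pseudogene CR43482 at 2194 bp and the ferredoxin gene Fdx1 at 2306 bp, while CG4452 lay at 3244 bp. The antisense gene asRNA:CR43481 (605 bp) and the pseudogene CR43483 (1728 bp) were inside without being members. CG4080 had its own IDR summit 42 bp from its body, at rank 7581.

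**Figure D1:**
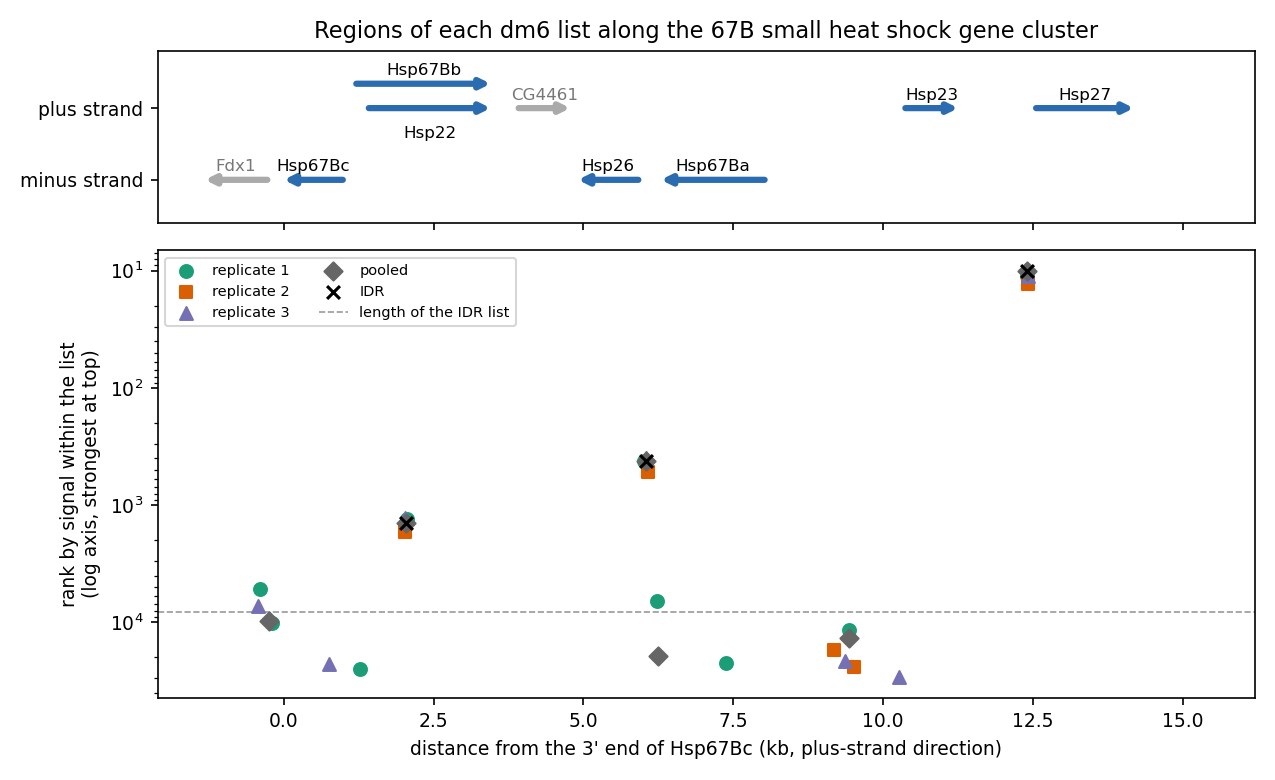
The upper panel draws genes along the cluster (blue, members; grey, CG4461 and Fdx1, other neighbours not drawn; arrowheads show direction), and the lower panel plots the rank of every region against the distance in kb of its summit from the 3' end of Hsp67Bc, on a log axis with the strongest at the top. The symbols are the 3 replicates, the pooled list and the IDR list. At the same 3 places all lists have a region, with ranks that step from 10 to 13 at Hsp27, through 396 to 524 at Hsp26, to 1279 to 1705 at Hsp22.

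Hsp27, which encodes a small heat shock protein found in the nucleus, held the strongest region of the cluster. Its region ranked 11 in replicate 1, 13 in replicate 2 and 11 in replicate 3, each of 30000, and 10 in both the pooled and the IDR list. Its signal was 819, 865 and 985 in the 3 replicates, and 48.7 ± 2.21 times the median signal of the list (SD, n = 3). The 3 replicates thus put it at the same place near the top, at 0.0389% ± 0.00385 of the list. Only 21 protein-coding genes (0.151%), Hsp27 and Hsp23 included, had an IDR region in the body or within 2 kb that was ranked as high or higher.

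The summit at Hsp27 lay between genes, 145 bp upstream of the only annotated start in the IDR list. It was at 153, 139 and 142 bp in replicates 1, 2 and 3 (144.7 ± 7.37 bp, SD, n = 3), so that the 3 positions spanned 14 bp. The region was 416 bp wide in the IDR list (9383696 to 9384111), close to the commonest width of 420 bp. Its upstream window held the TATA box from −28 to −23 and no GAANNTTC and no GAGAG. The octamer ATGCAAAT lay at −158 to −151, with its nearer edge 6 bp from the IDR summit, and Hsp27 was the only member with this octamer in the 250 bp before a start. By comparison 3.10% of 19253 promoters and 3.18% of the windows of 100 bp on each side of an IDR summit held it. A match is a description of letters and not of binding.

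The nearest GAANNTTC to the Hsp27 summit lay at 9383725 to 9383732, 186 bp away, and the nearest GAGAG at 122 bp. Both lay inside the Hsp27 region of the IDR list, upstream of the 250 bp window. The ecdysone response element known upstream of Hsp27 has the core TTCAATGCA, and this core was found at chr3L:9383518-9383526, its nearer end 392 bp from the IDR summit. It is shown in capitals on the plus strand, chr3L:9383510-9383534, because it marks the hormone site of the gene.
EcRE core near Hsp27: gacaagggTTCAATGCActtgtcca
These letters occurred 2332 times on the arms, and in 0.400% of promoters. The core lay outside the Hsp27 region of every list, which began no further left than 9383696.

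Hsp26, a cytosolic small heat shock protein also made in the germ line, held the second region of the cluster. Its rank was 424 in replicate 1, 524 in replicate 2 and 396 in replicate 3, and 421 in the pooled and IDR lists. The signals of 220, 224 and 278 were 13.1 ± 0.741 times the median of their lists (SD, n = 3). Hsp27 exceeded it 3.73-fold, 3.86-fold and 3.55-fold in the same lists (3.71 ± 0.157, SD, n = 3). Of all genes 692 (4.96%) had an IDR region at least as strong.

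The Hsp26 summit was intergenic and lay 128 bp before the upstream start and 180 bp before the downstream start, 52 bp further on. In replicates 1, 2 and 3 it was 98, 156 and 131 bp before the upstream start (128.3 ± 29.1 bp, SD, n = 3). This span of 58 bp was wider than the 14 bp at Hsp27 and the 31 bp at Hsp22, each from 3 values. The IDR summit fell on the outermost base of the GAANNTTC match at −128 to −121. The summits of replicates 1, 2 and 3, at −98, −156 and −131, all lay outside this match. The chromatin fragments were 200 to 800 bp long, per the labels, so a summit places the signal far less finely than a motif of 8 bases. The promoter also held 6 matches to GAGAG in 3 separate runs, some of them overlapping, and the downstream start had a TATA box from −28 to −23. Its regions were narrow, 212, 211 and 221 bp in the replicates and 300 bp in the IDR list. In a replicate list 4.68% of regions or fewer were narrower than the commonest width, and in the IDR list 28.3%.

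Hsp22, a small heat shock protein of the mitochondrial matrix, held the weakest of the 3 regions. Replicates 1, 2 and 3 ranked it 1317, 1705 and 1279, and the pooled and IDR lists 1414. Its signal, 126, 118 and 152, was 7.20 ± 0.382 times the list median (SD, n = 3). The Hsp26 region exceeded it 1.75-fold, 1.90-fold and 1.82-fold (1.83 ± 0.0748) and the Hsp27 region 6.53-fold, 7.34-fold and 6.46-fold (6.78 ± 0.488), the same order in all 3 replicates. An IDR region at least as strong was present at 1771 genes (12.7%).

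**Figure D2:**
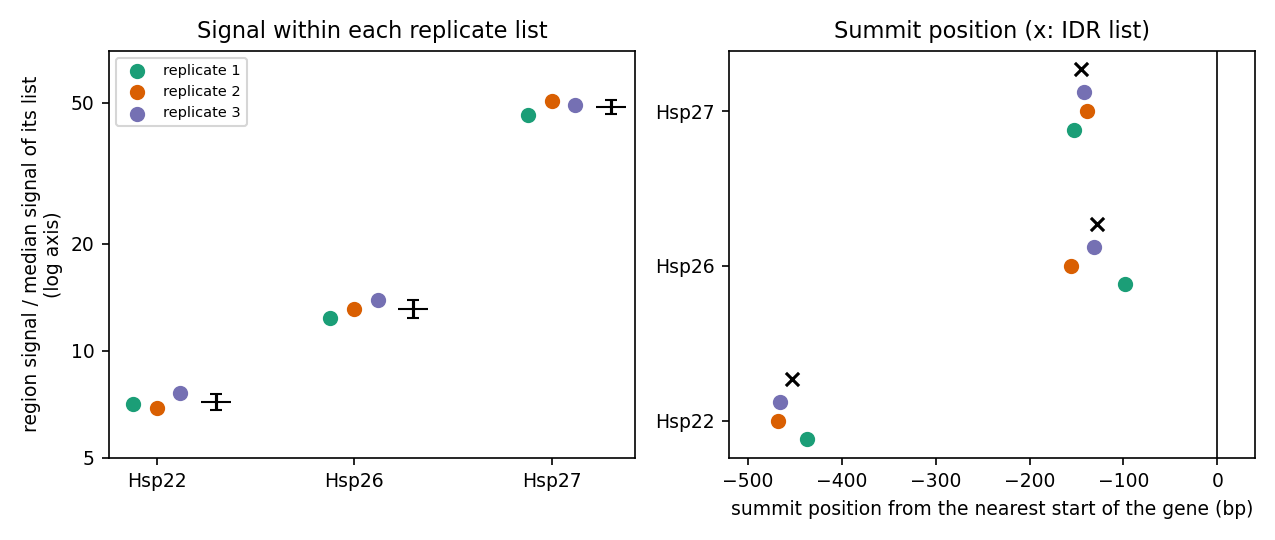
Left, signal of the region at Hsp22, Hsp26 and Hsp27 divided by the median signal of its list in each replicate (log axis), with mean and SD of the 3 replicates in black; right, position of the summit in bp from the nearest start of the gene, with the start at 0 and the IDR summit as a cross. The 3 loci do not overlap in signal (means 7.20, 13.1 and 48.7), and the summits at Hsp26 and Hsp27 lie between 98 and 156 bp upstream while those at Hsp22 lie 437 to 468 bp upstream.

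Unlike the regions at Hsp26 and Hsp27, the Hsp22 region was not next to a start. Its IDR summit lay 453 bp before the downstream start of Hsp22 (437, 468 and 466 bp in replicates 1, 2 and 3) and 613 bp after the upstream start that Hsp22 shares with Hsp67Bb. There it fell in exons of Hsp22-RA and of the Hsp67Bb transcripts CG4456-RB and CG4456-RC. The region was 180 bp wide in the pooled and IDR lists but 390, 384 and 410 bp in the replicates, the commonest width of each of those lists. In the pooled and IDR lists 7.89% and 28.3% of regions were narrower than the commonest width of 420 bp. None of the motifs searched lay within 100 bp of its summit. The GAANNTTC matches of Hsp22, at −188 to −181 and −87 to −80 of the downstream start, were 265 bp or more from it.

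Hsp23, whose protein is cytosolic, had hardly any region of its own. It counted at rank 11, 13 and 11 only through the Hsp27 region, 1153 bp beyond its 3' end. Its promoter had a region in replicate 3 alone, at −101 bp from the start, at rank 29655 of 30000 with a signal of 10.6. Yet this promoter held a GAANNTTC match at −138 to −131, 1 GAGAG and a TATA box from −27 to −22. Further upstream, between Hsp67Ba and Hsp23, all 3 replicates had weak regions with summits from 9380697 to 9381023. This place lies inside the body of asRNA:CR43481 (9378160 to 9381119). The weak regions there ranked 11555 in replicate 1, 17110 and 24194 in replicate 2 and 21333 in replicate 3, and the pooled list had 1 at 13522. None of them was in the IDR list.

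Hsp67Ba, the longest protein of the cluster, counted only through the Hsp26 region, 247 bp beyond its 3' end and 1979 bp from its start. The single region in its body was in replicate 1, at 9378888 and rank 22147, and the 250 bp before its start held none of the motifs searched. Hsp67Bc, which works with the co-chaperone Starvin in protein quality control, lay 1047 bp from the Hsp22 region. Its body held a region only in replicate 3, at 9372264 and rank 22753. Within its gene body Hsp67Bb had 1 more region than that at Hsp22, in replicate 1 alone, at 9372781 and rank 25028. Between the divergent starts of Hsp67Bc and Hsp67Bb lay 1 GAANNTTC match that counts for both, at 9372609 to 9372616, 112 bp from the first and 106 bp from the second, which of all regions only the weak one of replicate 1 at 9372781 covered.

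A further place, at the start of Fdx1 beyond the 3' end of Hsp67Bc, appeared in some lists. Replicate 1 had regions there at ranks 5204 and 10258 and replicate 3 at rank 7210, the pooled list had rank 9837, and replicate 2 had none. Beside the Hsp26 region, replicate 1 had a lesser region at rank 6550 and the pooled list at rank 19380. In all, the rule gave 6 regions in the pooled list and 9, 5 and 7 in replicates 1, 2 and 3, of which 3, 5, 3 and 4 were among the 8248 strongest of their list. The 3 regions at Hsp22, Hsp26 and Hsp27 were the ones found in all 5 lists, with summits within 200 bp. By the measure of a summit among the strongest 8248 in all 3 replicates, 7 of 7 members were again called beside 33.3% of all genes. The rule used the same lists, so nothing is read from that count.

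Motif matches in the 250 bp before the starts were not ordered as the regions were. A GAANNTTC match lay in the 250 bp before a start in 5 of 7 members (Hsp22, Hsp23, Hsp26, Hsp67Bb and Hsp67Bc), beside 7.66% of all promoters. Hsp67Bb and Hsp67Bc counted through the same match. Hsp27, with the strongest region, and Hsp67Ba had none in this window, though the IDR region at Hsp27 covered a GAANNTTC and a GAGAG further upstream. GAGAG lay before a start in 4 members, beside 29.1% of promoters, and TATAAA with its last base within 45 bp of a start in 6, beside 11.3% of promoters. A member counted through any of its starts, while these shares are of single starts, so the measures are not alike. Exact runs of 3 adjacent alternating GAA and TTC units, each pair separated by any 2 bases, occurred in no member and in 0.348% of promoters. With 1 mismatch allowed such runs lay before starts of Hsp22 (−87 to −75), Hsp23 (−173 to −161) and Hsp26 (−221 to −209 of the upstream start). The other members had none, and 6.84% of promoters held 1 or more. No member had the short class IV POU site ATTAATGAG, which 0.322% of promoters and 0.364% of IDR summit windows held, or the DNA replication element TATCGATA. At the summits GC content was 27.4% at Hsp22, 29.9% at Hsp26 and 38.8% at Hsp27, beside a median of 33.3% over the IDR list. Hsp27, the strongest, thus had the highest GC of the 3, above that of most IDR windows (18.5% were higher).

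**Figure D3:**
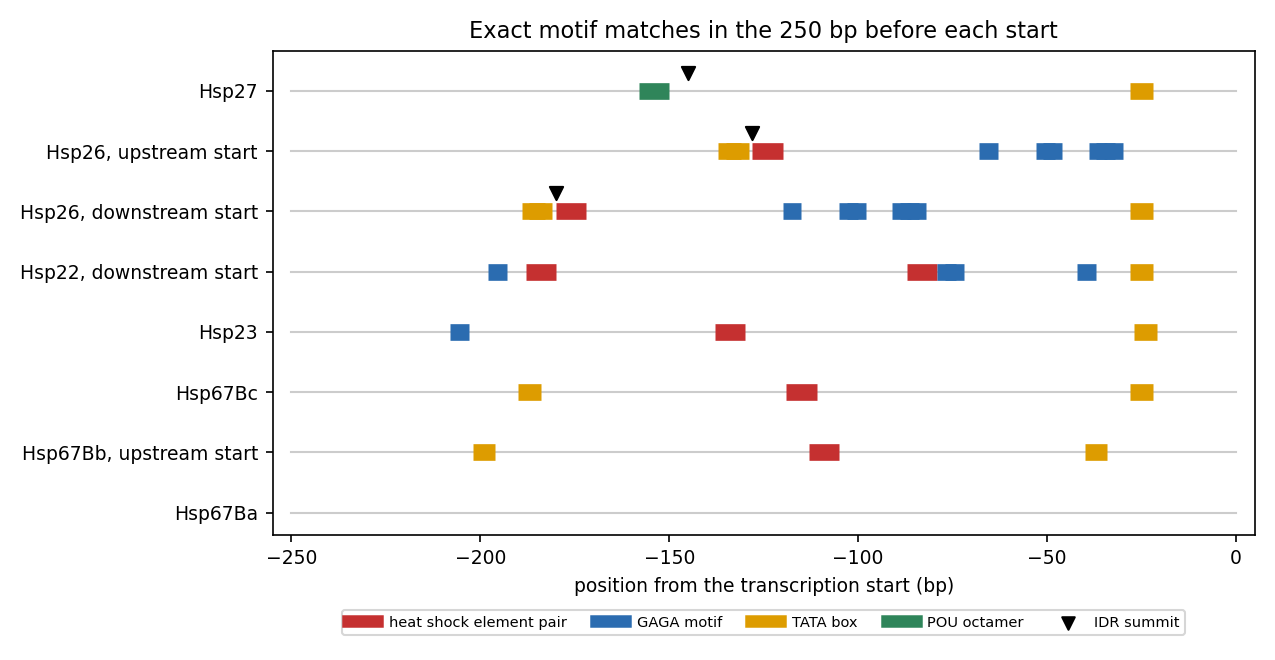
Each line is the 250 bp before a transcription start of a member (x axis, position in bp from the start), with exact matches to the heat shock element pair (GAANNTTC only), the GAGA core, the TATA box and the POU octamer as coloured blocks and the IDR summit as a triangle where it falls in the window. The Hsp26 IDR summit falls on the edge of a heat shock element pair, where no replicate summit falls, and the Hsp27 IDR summit 6 bp from the octamer. Hsp23 has a heat shock element pair and no IDR summit.

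Sequence near the members was searched for further copies on the arms. Around the IDR summits at Hsp22, Hsp26 and Hsp27, every run of 36 bases in the 200 bp on each side occurs once. The same holds at the matching place before the starts of the other 4 members. The run length was a setting chosen here, and the placing of reads was not tested. The 6 members with an alpha-crystallin domain, Hsp67Bb left out, had between 33.0% and 55.7% identical residues over the aligned length in 15 pairs of translated coding sequences. Hsp23 and Hsp27 were the most alike, at 55.7%, and Hsp23 and Hsp26 had 55.4%. The promoters of Hsp27 and Hsp23 held very different regions, from rank 11 at Hsp27 to 29655 in 1 replicate at Hsp23. Hsp67Bb had at most 22 residues identical to any member.

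Other chaperone genes, 28 listed and 27 found in the annotation, are given for comparison. An IDR summit in the body or within 2 kb was present at 8 of the 27 (29.6%), beside 38.5% of all genes, and no test was made. The 27 include 6 Hsp70 genes without a summit, whose lack of regions cannot be used (below), so the share is not read as low. Of 5 other small heat shock genes 2 had a summit, CG4461 through the Hsp26 and Hsp22 regions and CG14207 at rank 3106, 1000 bp upstream of its start. Of 10 heat-inducible genes of large chaperones and their partners, 6 of them Hsp70 genes, 2 had a summit. They were Hsp83, the Hsp90 of flies, at ranks 202, 323 and 171 in replicates 1, 2 and 3, and stv, which encodes the co-chaperone Starvin, at 393, 381 and 492. The Hsf gene, for heat shock factor itself, had none and a region only in replicate 3, at rank 13257. Of 11 constitutive chaperone genes 4 had a summit: Hsc70-5 (rank 473), Hsp60A (rank 3497), Trap1 (rank 5819) and Droj2 (rank 5839). The Trap1 summit lay 2805 bp after its start, and Droj2 had no region in replicate 2. Hsp27 was above all of these chaperone genes in every replicate, and Hsp26 was below Hsp83 and stood near stv and Hsc70-5.

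The heat-inducible Hsp70 genes, the other large heat shock gene family, had no IDR region. Of 6 Hsp70 genes 5 had no region in any list, and Hsp70Bc had 1 in replicate 3 at rank 21645. At the place before their starts that corresponds to the Hsp27 summit, between 0% and 30.1% of 36-base runs occurred once on the arms, and some occurred up to 7 times. How reads from such repeats were treated is not given in the sources used here, so a lack of regions at the Hsp70 genes cannot be set beside the 67B members.

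**Figure D4:**
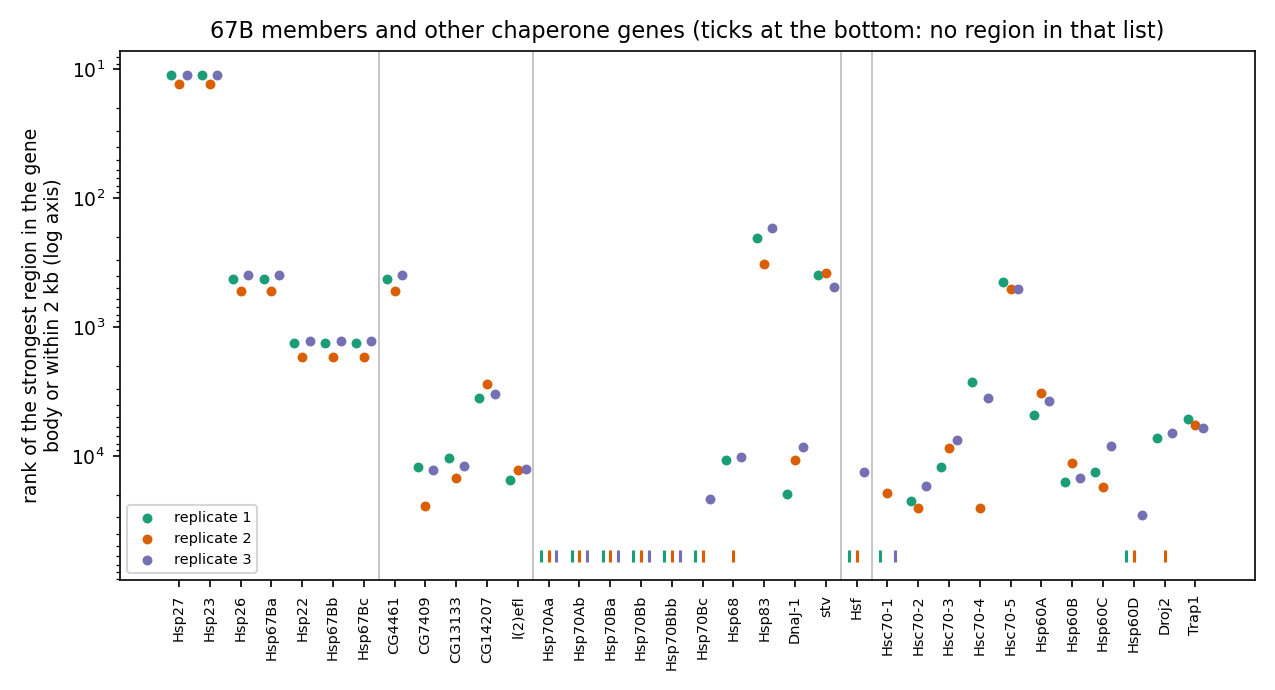
Rank of the strongest region in the gene body or within 2 kb in each replicate (log axis, strongest at the top) for the 7 members of the cluster and 27 other chaperone genes, with lines between the lists (other small heat shock genes, heat-inducible large chaperones, Hsf, constitutive chaperones). Short ticks at the bottom stand for replicates with no region and have no rank; Hsp27 and Hsp23 share 1 region at ranks 11, 13 and 11, above Hsp83 at 202, 323 and 171.

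By the mean absolute difference of log2 rank over the 3 replicates, among 3981 genes with a region within 500 bp of a start in every replicate, those most like Hsp27 were Art3 and mRpS10, which share a region. Their ranks were 16, 14 and 13 and the difference was 0.30 on the log2 scale. CenG1A and mRpS23, which also share a region, followed with ranks 12, 15 and 7 and a difference of 0.33. The likeness is that of rank alone, over 3 samples.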

How the data were processed

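Chromatin of whole acj6-GFP white prepupae of 3 biological replicates was fragmented by sonication (200 to 800 bp, per the labels) before immunoprecipitation of GFP. For dm6 the authors deposited 5 lists of regions: 1 per replicate, 1 of the pooled reads and 1 that passed IDR. Each region has the signal value of the authors' caller and a deposited −log10 q value, which sits at its ceiling in 91.8% of the IDR list and in 22.3% to 25.2% of the others and was used only to describe the lists. Text files deposited by the authors state that each replicate's list came from that replicate's alignment and a control file common to all. Aligner, caller, versions and IDR cutoff were not given in the sources used here. Lists in dm3 and the control experiment were not analysed here.

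Summits were set against the Ensembl release 115 annotation and the RefSeq genome of Release 6, both in dm6 coordinates. Hsp67Bb was matched by a synonym. Replicates were compared over their 8248 strongest regions, and a replicate summit within 200 bp of an IDR summit was taken as the same place. Repeated intervals and summits outside their interval were kept as deposited. Motifs were exact matches on both strands of the 250 bp before 19253 starts or within 100 bp of 8248 summits. Runs of 3 heat shock units were also searched with 1 mismatch, and pairs of units only as GAANNTTC. Proteins were aligned globally with BLOSUM62, gap opening 11 and extension 1, with gaps at the ends not penalised. The members and gene lists were chosen with earlier results of these data known. Named genes were the members, all genes within 2 kb of the cluster, the listed chaperone genes with an IDR summit, and the 3 genes most like Hsp27 in rank, where ties share a region; chaperone genes named for lacking a region were added after their values were seen. No tests were made, since there is 1 group and the rule used these lists. Alternatives covered distance, list, matching of summits, repeated intervals, motif windows and each replicate left out. Python 3.11.15, numpy 2.4.6, pandas 2.3.3, scipy 1.17.1, Biopython 1.88 and matplotlib 3.10.9 were used, and the calculations were tested on simulated regions and motifs.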

Additional observations from a re-analysis of the deposited data

How the results depend on the processing

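Over 21 results and 76 alternatives, 69 values stayed within the limits set for them and 7 moved. Counts had to stay within a set factor, under which 5 members in place of 7 did not count as moved. Ranks and positions had to stay within the SD of the 3 replicates, and motif shares within the 95% interval for promoters. With 1 of 3 replicates left out, a mean cannot leave that SD and a count of summits met in every replicate cannot fall. Those values could not move, so the 69 does not measure how firm the results are. The count of 7 members with an IDR summit was 4 within 1 kb of a transcription start and 3 with each summit given to its nearest gene. It was 5 with the window cut to 1 kb around the gene body, where Hsp23 and Hsp67Bc dropped out, and 7 with the stronger regions of the IDR list, with the pooled list at the same length, with 5 kb and with repeated intervals counted once. The window of 5 kb and repeated intervals counted once could not lower the count. The pooled list has the same regions at the same ranks, 10, 421 and 1414. The mean rank of Hsp23 moved from 0.0389% to 72.7% of the list with the window of 1 kb, since it then no longer took the Hsp27 region, and Hsp67Bc had no region there in replicate 2. In summit windows in place of promoters the share with GAANNTTC was 6.18%, with GAGAG 20.2% and with the DNA replication element 1.76% (6.90% of promoters). Runs of 3 heat shock units with 1 mismatch allowed were in 6.84% of promoters.

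The 3 IDR summits were met in all 3 replicates under every alternative tried for the matching. Leaving out each replicate in turn, or using all regions of each replicate list, could not lower this count. Without each replicate the mean rank ranged from 0.0367% to 0.0400% of the list at Hsp27, from 1.37% to 1.58% at Hsp26 and from 4.33% to 5.04% at Hsp22. The order could not change, since it was the same in all 3 replicates. The mean summit position ranged from −147.5 to −140.5 bp at Hsp27, from −143.5 to −114.5 bp at Hsp26 and from −467 to −451.5 bp at Hsp22. A planned ranking by the deposited p-value was not run, since that column holds the same value in every row. No paired analysis was possible because there is 1 group. Depth is unknown, so weak regions such as that at Hsp23 cannot be told from background here, and the IDR list was made from these same replicates.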
